A study of Rattus norvegicus with 8 samples.

Results

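Liver sinusoidal endothelial cells carry a set of receptors and enzymes that clear waste from the blood, and 9 genes known from these cells were followed here in cirrhotic rat livers: Stab1, Stab2, Lyve1, Fcgr2b, Clec4g, Oit3, Gpr182, Dnase1l3 and Mrc1. A probe set, that is, a group of short oligonucleotide probes for 1 transcript, was taken as belonging to a gene when its only symbol in the platform annotation was that gene. Of the 9 genes, 7 had such a probe set, with 9 probe sets in all among 31042 on the array that are not controls. Lyve1 and Gpr182 had 2 probe sets each and the other genes 1. Clec4g and Oit3 had none, so that no level of theirs is given.

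The treated rats and the vehicle rats were male Wistars made cirrhotic with carbon tetrachloride, a hepatotoxin given by inhalation, and all drank water with 0.3 g/L phenobarbital, which induces hepatic drug metabolism. By the sample titles, 4 liver samples came from rats given an antiangiogenic treatment and 4 from rats given vehicle, while the series description calls the rats without it non-treated. The labels name neither the compound nor its dose, nor the age of the animals, and no liver without cirrhosis is in the comparison. The platform was the Affymetrix Rat2302, with 1 array a sample, and all values are log2 intensities, so that a difference of 1 is a 2-fold change.

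In healthy liver the sinusoidal endothelium has open pores, no tight basement membrane and a very high rate of endocytosis. Its scavenger receptors bind hyaluronan, collagen fragments, modified lipoproteins, glycoproteins and small immune complexes, and deliver them to lysosomes. During chronic injury these cells can lose their pores and much of this receptor set, a change known as capillarization. Several of the genes are also used by other cells: Lyve1 marks lymphatic endothelium, Mrc1 and Stab1 are found on macrophages, Fcgr2b on B cells and macrophages, and Dnase1l3 on macrophages and dendritic cells.

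Treated 3 and vehicle 4 stood apart from the other arrays, because they were nearly identical to each other. Their median absolute difference over 31042 probe sets was 0.112, against 0.169 to 0.289 in the 27 other pairs of arrays, and 4 probe sets differed more than 2-fold, against 599 to 3219. Over the 9 scavenger receptor probe sets their median absolute difference was 0.0610 and the largest 0.183. The labels place them in different groups, and they were kept there. The scavenger receptor results are also given without vehicle 4 or without both. Whether they are copies of 1 sample or carry a wrong label cannot be told from the files, so that the 4 arrays of a group may not be 4 independent samples of it, and the means and p-values over 8 arrays carry that doubt. The 25th percentile of the log2 values was 3.74 to 3.91 on treated and 3.75 to 3.91 on vehicle arrays. Albumin (Alb), the most abundant hepatocyte product, lay between 14.79 and 14.85 on treated and between 14.81 and 14.85 on vehicle arrays. Gapdh control probe sets, whose 3′ minus 5′ log2 value rises as RNA degrades, gave 0.133 to 0.404 on treated and 0.186 to 0.414 on vehicle arrays. For the beta-actin controls this value was larger, at 1.77 to 1.88 on treated and 1.70 to 1.91 on vehicle arrays.

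All 9 probe sets had a lower mean in treated livers, and the 3 highest arrays were vehicle 1, 2 and 3 at 7 of the 9. Vehicle 4 lay below these 3 arrays at 8 of the 9, close to treated 3. The differences ranged from −1.26 for Lyve1 and −1.23 for Stab1 to −0.30 for Dnase1l3, and the median over the 7 genes was −0.82, against 0.01 over all 14217 genes. Of those 14217 genes, 48.4% were lower in treated livers. No probe set passed the threshold. In the limma fit over all 8 arrays 0 of 9 had an adjusted p under 0.05, against 0 of 31042 on the array (0%), and every adjusted p was 0.979. At an unadjusted p of 0.05 in limma, 6 of the 9 were lower (Stab2, Fcgr2b and both probe sets of Lyve1 and of Gpr182), against 634 of 31042 (2.04%), and 1220 of all probe sets differed in either direction. The difference was −1 or lower at 4 of the 9 (Stab1, Stab2 and both of Lyve1), against 0.867% of all probe sets. Because RNA came from whole liver, fewer endothelial cells and less RNA per cell cannot be told apart.

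**Figure D1:**
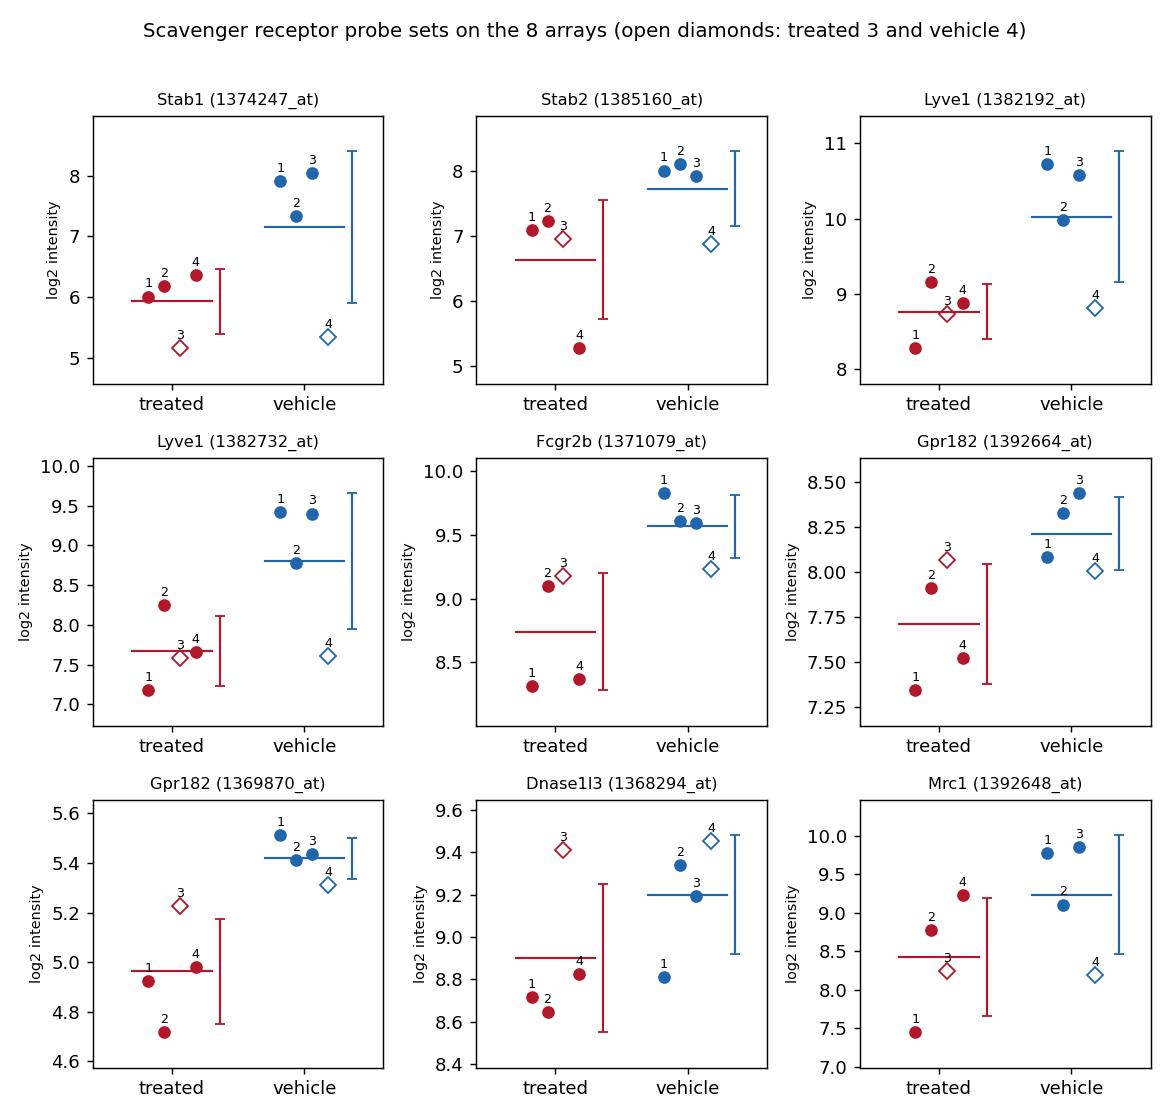
Log2 intensity of each of the 9 scavenger receptor probe sets on the 8 arrays, treated livers on the left and vehicle livers on the right of each panel, with the group mean as a line and the SD beside it. Digits give the replicate, and open diamonds mark treated 3 and vehicle 4. At 7 probe sets all 4 treated arrays lie below vehicle 1, 2 and 3, and vehicle 4 lies beside treated 3 throughout.

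The letters upstream of Stab1 and Lyve1, which had the largest differences, are shown here, since Gata4 and Maf, both measured here, encode transcription factors that sustain sinusoidal endothelial identity in mice. Windows of 250 bases before the start site were taken from RefSeq (rat assembly GRCr8) for 8 of the 9 genes. Fcgr2b had none. The start site used was the outer end of the annotated gene for 5 of the 8. It lay 15 bases inside the annotated gene for Stab1, 869 for Dnase1l3 and 22071 for Stab2, and the letters before the outer end of Dnase1l3 and Stab2 were not examined. Capitals mark matches on either strand to a GATA motif, spelled AGATAA, or else AGATAG, or else TGATAA, or else TGATAG, or to the MAF half-site TGCTGA.
Stab1 (chr16:6367360-6367609, minus strand): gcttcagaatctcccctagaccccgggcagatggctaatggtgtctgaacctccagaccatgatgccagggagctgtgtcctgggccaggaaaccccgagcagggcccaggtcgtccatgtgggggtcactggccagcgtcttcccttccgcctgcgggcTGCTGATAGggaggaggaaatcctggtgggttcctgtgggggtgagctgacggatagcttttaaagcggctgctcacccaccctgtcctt
Lyve1 (chr1:174410978-174411227, minus strand): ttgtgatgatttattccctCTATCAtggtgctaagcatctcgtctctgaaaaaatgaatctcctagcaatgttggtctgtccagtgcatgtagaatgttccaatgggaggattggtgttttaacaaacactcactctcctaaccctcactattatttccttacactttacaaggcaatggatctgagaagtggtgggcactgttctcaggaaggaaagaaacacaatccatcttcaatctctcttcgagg

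In the Stab1 window both motifs lie together, sharing 3 letters in the run TGCTGATAG, which begins 90 bases before the start site. That run is present in 41 of 33469 rat windows of the same length (0.123%). Lyve1 had a GATA match 231 bases before its start site and no MAF half-site. A GATA match was present in 5 of the 8 windows, those of Stab1, Lyve1, Clec4g, Oit3 and Dnase1l3, against 27.0% of all windows. A MAF half-site was present in 2 of 8, Stab1 and Oit3, against 15.1%. An ETS motif, spelled CGGAAG, or else AGGAAG, or else CGGAAA, or else AGGAAA, the kind bound by endothelial ETS factors, was present in 7 of 8, all but Dnase1l3, against 58.3%. Among the 6 genes that have both a window and a probe set, the counts were 3 for GATA, 1 for the MAF half-site and 5 for ETS. These are matches of letters only, and the motifs were chosen with the windows in view.

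Stab1 (1374247_at), the scavenger receptor stabilin-1, which takes up modified lipoproteins and the matrix protein Sparc, read 6.01, 6.18, 5.16 and 6.36 on treated 1 to 4, against 7.90, 7.33, 8.04 and 5.34 on vehicle 1 to 4. All treated arrays lay below vehicle 1, 2 and 3, but vehicle 4 lay below 3 of the treated arrays, so that the groups overlapped. The means were 5.93 ± 0.53 in treated and 7.15 ± 1.25 in vehicle livers (SD, n = 4 each), or 2.34-fold lower. The difference of −1.23 had a 95% interval of −2.49 to 0.04 and a limma adjusted p of 0.979. Without vehicle 4 the difference was −1.83 (−2.53 to −1.13), with an adjusted limma p of 0.146. Without both nearly identical arrays it was −1.57 (−2.08 to −1.07), with an adjusted limma p of 0.225. It had the 25th smallest unadjusted p of all 31042 probe sets in that fit, and the 66th in the fit without vehicle 4. Over all 8 arrays its unadjusted limma p was 0.057.

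Stab2 (1385160_at), the receptor stabilin-2 that removes hyaluronan from the circulation, read 7.10, 7.23, 6.95 and 5.27 on treated 1 to 4 and 8.01, 8.11, 7.93 and 6.87 on vehicle 1 to 4. Vehicle 1, 2 and 3 lay within 0.19 of each other and above every treated array, and treated 4 was far below all others. The difference was −1.09 (95% interval −2.12 to −0.07, limma adjusted p = 0.979), 2.14-fold. It was −0.64 without treated 4, −1.38 without vehicle 4 and −1.49 without both nearly identical arrays.

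Lyve1, a hyaluronan receptor of lymphatic and sinusoidal endothelium, was measured by 2 probe sets that gave the same order of groups. The brighter (1382192_at) read 8.28, 9.16, 8.74 and 8.88 on treated 1 to 4, against 10.73, 9.98, 10.58 and 8.81 on vehicle 1 to 4. The other (1382732_at) read 7.18, 8.24, 7.59 and 7.66 on treated and 9.43, 8.78, 9.40 and 7.60 on vehicle arrays. In both, all treated arrays lay below vehicle 1, 2 and 3, and vehicle 4 lay within the treated range. Their differences were −1.26 (95% interval −2.15 to −0.36) and −1.14 (−2.04 to −0.23), that is, 2.39-fold and 2.20-fold lower, with limma adjusted p of 0.979. Without vehicle 4 they were −1.66 and −1.54, with adjusted limma p of 0.115 and 0.169. The value of 0.115 was the smallest adjusted p of any scavenger receptor probe set in that fit. Without both nearly identical arrays the Lyve1 differences were −1.66 and −1.51, with adjusted limma p of 0.379 and 0.560.

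Fcgr2b (1371079_at), the inhibitory Fc receptor with which sinusoidal endothelium takes up small immune complexes, read 8.32, 9.10, 9.17 and 8.37 on treated 1 to 4, against 9.82, 9.61, 9.59 and 9.23 on vehicle 1 to 4. The groups did not overlap, but the gap between them, from treated 3 to vehicle 4, was that between the nearly identical arrays, which differed by −0.06. The difference was −0.82 (95% interval −1.34 to −0.31, limma adjusted p = 0.979), 1.77-fold, and −1.08 without both nearly identical arrays. The groups did not overlap, with treated lower, at 2 of the 9 probe sets, this and the dimmer Gpr182, against 180 of all probe sets (0.58%).

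Gpr182, a G protein-coupled receptor of endothelium that takes up chemokines, differed by less. Its brighter probe set (1392664_at) read 7.34, 7.91, 8.06 and 7.52 on treated 1 to 4 and 8.08, 8.33, 8.44 and 8.00 on vehicle 1 to 4, overlapping only between treated 3 and vehicle 4. The dimmer (1369870_at), near the array median, read 4.92, 4.72, 5.23 and 4.98 on treated and 5.51, 5.41, 5.44 and 5.31 on vehicle arrays, without overlap. As for Fcgr2b, the gap was that between treated 3 and vehicle 4, here −0.08. The differences were −0.50 (95% interval −0.91 to −0.09) and −0.46 (−0.74 to −0.17), with limma adjusted p of 0.979. They were −0.69 and −0.58 without both nearly identical arrays.

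Mrc1 (1392648_at), the mannose receptor, which clears collagen chains and lysosomal enzymes from blood, read 7.45, 8.77, 8.24 and 9.24 on treated 1 to 4, against 9.78, 9.11, 9.86 and 8.20 on vehicle 1 to 4. Treated 4 exceeded vehicle 2, so the groups overlapped even without vehicle 4. Its difference was −0.81 (95% interval −1.83 to 0.21, limma adjusted p = 0.979), and −0.48 without treated 1 and −1.16 without vehicle 4. Dnase1l3 (1368294_at), a secreted nuclease that digests DNA of dying cells, read 8.72, 8.65, 9.41 and 8.83 on treated and 8.81, 9.34, 9.19 and 9.45 on vehicle arrays. It was the only probe set of the 9 that was highest on treated 3 and vehicle 4. The difference was −0.30 (−0.76 to 0.16, limma adjusted p = 0.979), and −0.47 without treated 3 and −0.21 without vehicle 4.

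Leaving out vehicle 4 widened 8 of the 9 differences, all but that of Dnase1l3. This follows from vehicle 4 lying below vehicle 1, 2 and 3 at those 8, and is no separate result. All 4 treated arrays lay below vehicle 1, 2 and 3 at 7 of the 9 probe sets, against 3.21% of all probe sets. In that fit 8 of the 9 were lower at an unadjusted limma p of 0.05, against 4.81%, and 0 of 9 at an adjusted p of 0.05, against 11 of 31042 (0.0354%). Without both nearly identical arrays 7 of 9 were lower at an unadjusted limma p of 0.05, against 3.67%, and 0 of 9 passed adjustment, against 3 of 31042 (0.00966%).

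**Figure D2:**
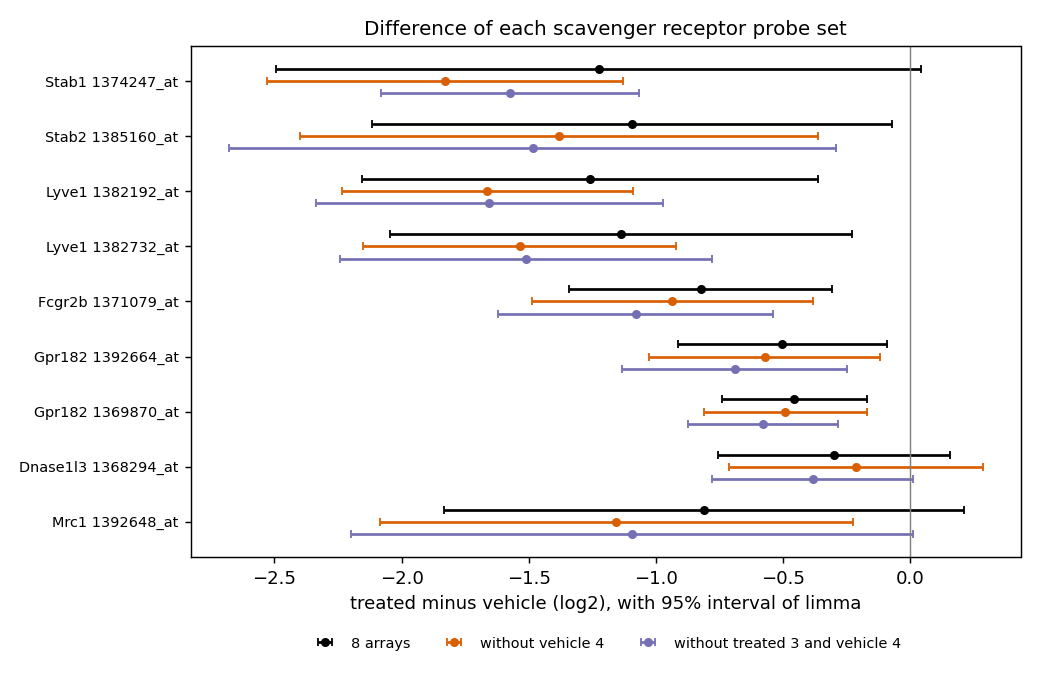
Treated minus vehicle difference (log2) of each scavenger receptor probe set with its 95% limma interval, over 8 arrays (black), without vehicle 4 (orange) and without treated 3 and vehicle 4 (violet). The differences for Stab1 are −1.23, −1.83 and −1.57, and those for Dnase1l3 are −0.30, −0.21 and −0.38, with intervals that include 0.

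**Figure D3:**
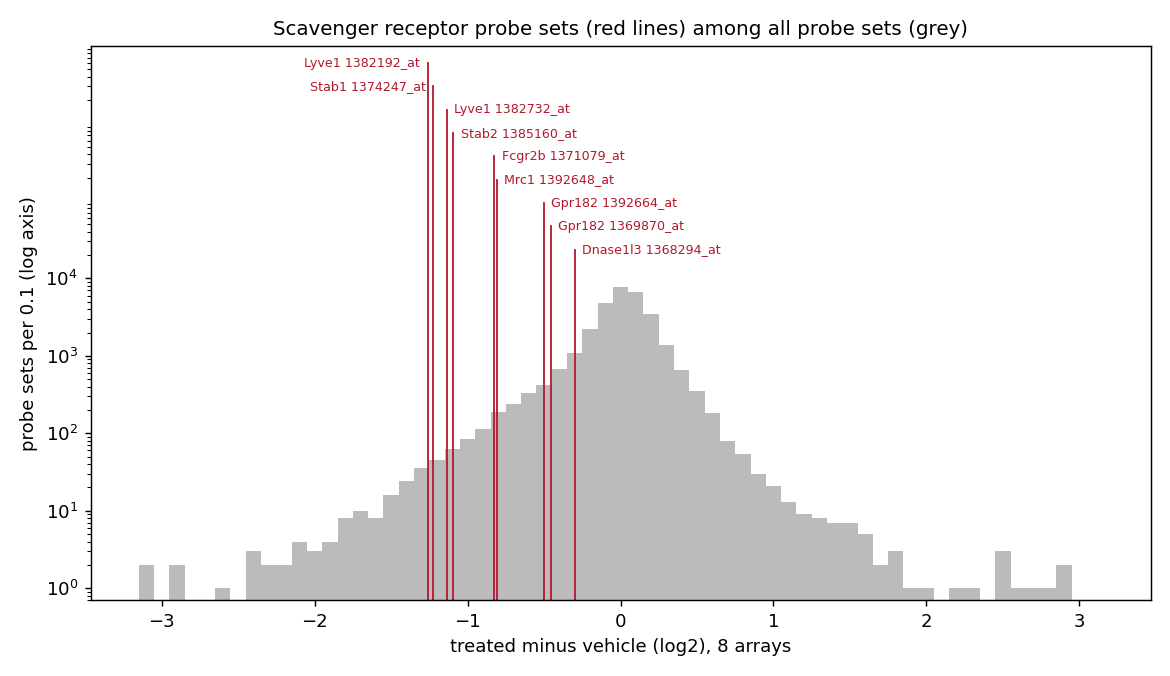
Number of probe sets (log axis) at each treated minus vehicle difference (log2, in steps of 0.1) over all 31042 probe sets in grey, with the 9 scavenger receptor probe sets as red lines. All 9 lie to the left of 0, between −1.26 and −0.30, and the height of a red line carries no value.

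The spiked-in bacterial controls BioB and BioC, which are added before hybridization, divided the arrays into 3 groups that each hold as many treated as vehicle arrays. In the first, treated 1 and vehicle 1, BioC exceeded BioB by 1.32 and 1.48. In the third, treated 3 and vehicle 4, BioB was highest at 8.87 and 8.97. The other 4 arrays formed the second. BioB read 7.97, 8.08, 8.87 and 7.81 on treated 1 to 4 and 7.39, 7.52, 7.43 and 8.97 on vehicle 1 to 4. It was thus lowest on vehicle 1, 2 and 3, the arrays where most scavenger receptor probe sets were highest. A link between the 2 was not tested. Within the first group the differences were −1.89 for Stab1, −0.92 for Stab2, −2.45 for the brighter Lyve1 probe set, −1.50 for Fcgr2b and −2.33 for Mrc1. Within the second, over 2 arrays a side, they were −1.41, −1.77, −1.26, −0.87 and −0.48 for the same 5. The dimmer Lyve1 probe set differed by −2.25 in the first group and −1.14 in the second, and Dnase1l3 by only −0.09 and −0.53. The brighter Gpr182 probe set differed by −0.74 and −0.67, and the dimmer by −0.59 and −0.58. Within the third group the differences lay between −0.18 and 0.08 for all 9 probe sets.

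The scavenger receptor genes differed from each other in which array was low. Treated 1 was the lowest array at 5 of the 9 probe sets. Treated 4 was the lowest array for Stab2 and the highest treated array for Stab1 and Mrc1. Likeness was measured as the root mean square distance over the 8 arrays between profiles centred on their own means, 0 being identical. Among the 7 genes the nearest were Fcgr2b and Gpr182, at 0.246, and Lyve1 and Mrc1 were at 0.391. Stab1 and Stab2 were at 0.892, and the farthest were Stab1 and Dnase1l3, at 1.14. Among 8488 other genes with a mean above 6, the nearest to Fcgr2b was Bmp2 at 0.193, the nearest to Stab2 was Kdr at 0.462, and the nearest to Gpr182 was Clec14a at 0.137. The nearest to Lyve1 were Srgn and Slfn4, at 0.182 and 0.192, and to Stab1 Glipr1 and Coro1a, at 0.334 and 0.349. Those of Mrc1 were Cttnbp2nl and Nck2, at 0.136 and 0.163, and that of Dnase1l3 was Slc30a3 at 0.0859. The next nearest were Nfil3 for Fcgr2b at 0.229, Tnfaip8l3 for Stab2 at 0.498, Col8a1 for Gpr182 at 0.157 and Slc25a51l1 for Dnase1l3 at 0.115. The distance also depends on how much a gene varies.

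Of 17 other sinusoidal endothelial genes 13 were lower, and the median difference was −0.25 (−0.42 without vehicle 4 and −0.36 without both nearly identical arrays), and 0 of 17 passed the limma threshold. Bmp2, a ligand by which these cells control hepcidin in hepatocytes, averaged 6.54 ± 0.39 in treated and 7.31 ± 0.35 in vehicle livers (difference −0.77). Maf averaged 8.49 ± 0.32 and 9.13 ± 0.59 (difference −0.64), and Tek, the angiopoietin receptor, differed by −0.54. Gata4 read 7.02, 6.68, 7.05 and 6.92 on treated 1 to 4 and 7.05, 7.12, 7.02 and 7.15 on vehicle 1 to 4, a difference of −0.16 with overlap. Of the 4 that were higher, Wnt2 and Rspo3, ligands from endothelium near the central vein, were higher by 0.10 and 0.14, and Bmp6 and Icam1 by 0.08 and 0.20. Without both nearly identical arrays Wnt2 differed by −0.03.

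Of 15 other receptors that take up ligands in any liver cell, 6 were lower and 9 higher, against 7 of 7 scavenger receptor genes lower. The median of the 15 was 0.07 (0.02 without vehicle 4), but −0.04 without treated 1 and −0.09 without treated 4. The 3 with the smallest unadjusted p were Asgr2, Asgr1 and Pla2r1. Asgr1 and Asgr2, the subunits of the hepatocyte receptor for asialoglycoproteins, were higher in treated livers, by 0.57 and 0.62, and Pla2r1, a relative of the mannose receptor, differed by −0.39. The widest differences of this list were −1.12 for Cxcl16, −1.07 for Colec12 and 0.97 for Ly75. Without vehicle 4 they were −1.62, −1.52 and 0.85. Lower values as wide as those of Stab1 and Stab2 were thus not limited to the scavenger receptor genes. Of 21 genes of coated vesicles, endosomes and lysosomes 14 were lower, and their median was −0.07 (−0.10 without vehicle 4). Among them Hyal2, a hyaluronidase, differed by −0.45, Ctss, a cathepsin of antigen-presenting cells, by −0.71 and Dab2, an adaptor of clathrin-coated vesicles, by −0.84. None of either list passed the limma threshold (0 of 15 and 0 of 21).

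Of 15 genes for ligands of these receptors or for hyaluronan turnover 13 were lower. Their median was −0.27 (−0.42 without vehicle 4), with 0 of 15 past the limma threshold. Sparc, a ligand of stabilin-1, averaged 8.96 ± 0.69 in treated and 10.04 ± 0.51 in vehicle livers (difference −1.08). Cd44, the main hyaluronan receptor of leukocytes, differed by −0.97, and Postn, a matrix protein that stabilins bind, by −0.69. Postn read 3.63, 3.45, 3.98 and 3.94 on treated 1 to 4 and 5.04, 3.90, 4.94 and 3.88 on vehicle 1 to 4. Only on vehicle 1 and 3 was it well above the 25th percentile of the arrays. Has2, a hyaluronan synthase, read near the 25th percentile of the arrays and differed by −0.15.

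The markers of other cells that can carry these receptors were examined list by list, and 0 genes of these lists passed the limma threshold over 8 arrays. Among 6 lymphatic endothelial markers 5 were lower, and the list mean was 6.41 to 7.09 on treated and 6.62 to 8.66 on vehicle arrays. Their median difference was −0.74, and −0.99 without vehicle 4. Ccl21, the chemokine of lymphatic endothelium, read 5.49, 5.62, 6.06 and 7.75 on treated 1 to 4, against 10.66, 9.68, 10.05 and 5.97 on vehicle 1 to 4 (difference −2.86, limma adjusted p = 0.979, and −3.90 without vehicle 4). Mmrn1, multimerin-1, read 3.45, 3.53, 3.43 and 5.36 on treated and 8.70, 7.51, 8.46 and 3.47 on vehicle arrays (difference −3.09, and −4.28 without vehicle 4). On treated 1 to 3 and vehicle 4 it lay below the 25th percentile of its array. Both were thus high on the arrays where Lyve1 was high, and their part in the Lyve1 difference was not tested. The other defining markers were Pdpn, with a difference of −0.94, Sox18 (−0.55), Reln (−0.24) and Prox1 (0.04), which hepatocytes also express.

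Among 12 vascular endothelial markers 11 were lower, and the list mean was 5.80 to 6.19 on treated and 6.05 to 6.84 on vehicle arrays. Their median difference was −0.56, and −0.76 without vehicle 4. Nos3, Plvap and Emcn had the smallest unadjusted p, in that order. Nos3 differed by −0.68 and Plvap by −0.64, and Emcn averaged 6.27 ± 0.33 in treated and 7.27 ± 0.68 in vehicle livers. Cldn5, an endothelial tight junction protein singled out after its values were seen, averaged 4.29 ± 0.38 in treated and 6.04 ± 1.33 in vehicle livers. It did not pass over 8 arrays but did in fits that left arrays out, with limma adjusted p of 0.0234 without vehicle 4 and 0.0388 without both nearly identical arrays.

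Among 14 macrophage markers 12 were lower, and the list mean was 7.50 to 8.55 on treated and 8.19 to 8.89 on vehicle arrays. Their median difference was −0.62, and −0.81 without vehicle 4. It depended on the arrays kept, at −0.25 without treated 1 and −0.90 without treated 4. With the mean of each gene's probe sets over all arrays the median was −0.45. Csf1r, the macrophage growth factor receptor, differed by −0.82 and Lyz2, a lysozyme, by −0.87. Ptprc, the common leukocyte antigen, averaged 7.31 ± 0.73 in treated and 8.31 ± 0.79 in vehicle livers, while the Kupffer cell genes Clec4f and Cd5l differed by −0.03 and 0.16. Cd14, the endotoxin coreceptor, was higher, by 0.88. The list was lowest on treated 1, where Mrc1 and Lyve1 were also lowest. That is not particular to macrophages. The lymphatic, dendritic cell, B cell, stellate cell and hepatocyte lists were lowest on treated 1 too, and the vascular list on treated 2. All 3 dendritic cell markers were lower, with a list mean of 4.51 to 5.12 on treated and 4.89 to 5.82 on vehicle arrays, and differences of −1.07 for Clec9a, −0.43 for Flt3 and −0.45 for Itgax. Clec9a, at 3.07 to 3.42 on treated arrays and 3.36 on vehicle 4, lay there below the 25th percentile of the arrays. Without vehicle 4 its difference was −1.38, past the threshold with a limma adjusted p of 0.0234, and without both nearly identical arrays it was −1.33, with an adjusted p of 0.110. Of 4 B cell markers 2 were lower, with a list mean of 4.34 to 4.72 on treated and 4.55 to 4.81 on vehicle arrays, and the B cell antigen Ms4a1 read 3.35 to 3.67 on treated and 3.25 to 3.46 on vehicle arrays. Blnk, a B cell adaptor that myeloid cells share, differed by −1.03, Cd22 by −0.16 and Ms4a1 by 0.11. Of 7 stellate cell markers 4 were lower, with a list mean of 6.90 to 7.41 on treated and 7.10 to 7.40 on vehicle arrays, and with differences of −0.67 for Acta2, −0.32 for Hand2 and 0.26 for Lrat. Of 8 hepatocyte markers 5 were lower, with a median of −0.03, a list mean of 12.92 to 13.37 on treated and 13.17 to 13.40 on vehicle arrays, and differences of −0.64 for Apoa1, 0.15 for Hnf4a and −0.12 for Cps1. The part of these cells in the scavenger receptor differences was not tested.

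**Figure D4:**
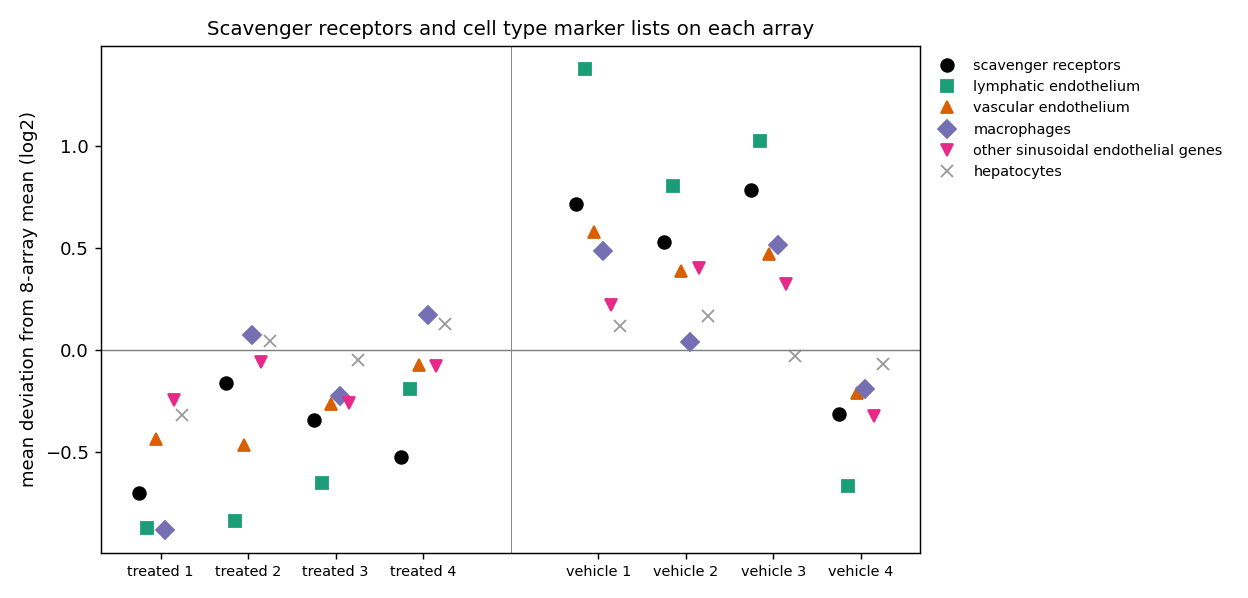
Mean deviation (log2) of each gene list from the 8-array means of its genes, on each treated array (left) and each vehicle array (right). The 7 scavenger receptor genes stand at −0.70, −0.16, −0.34 and −0.52 on treated 1 to 4 and at 0.72, 0.53, 0.79 and −0.31 on vehicle 1 to 4. The lymphatic list spans from −0.87 on treated 1 to 1.38 on vehicle 1, and the hepatocyte list from −0.31 to 0.17.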

How the data were processed

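RNA of frozen liver, extracted with Trizol and RNeasy, was labelled as biotinylated cRNA from an oligo(dT) primer, per the labels' protocols. The deposited values are log2 intensities that the authors made with affy and RMA (background correction, quantile normalization and probe set summary), per the submitters' processing notes. Their versions were not named. RMA tends to draw differences of dim probe sets towards 0. The number of arrays limits the precision, no detection calls were used, and the labels do not state that each array came from a separate animal, so p-values measure only the spread between these arrays, which may be technical.

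Tests excluded the 57 controls. The platform annotation gave 1 gene symbol for 20826 of 31042 probe sets, several for 436 and none for 9780. Through gene identifiers, 20758 of the 20826 matched a RefSeq table of GRCr8, and 0 symbols changed. The main model was limma 3.58.1 (R 4.3.3), lmFit and eBayes on 8 arrays with no covariate, with Benjamini-Hochberg adjustment over all probe sets at 0.05, tested on simulated data. For lists and likeness, a gene stood for its probe set with the highest mean. Lists are described by counts and medians, without a set test. Named genes are every probe set of the scavenger receptor genes, the 2 nearest other genes of each, and the 3 genes of each list with the smallest unadjusted p; others were named after their values were seen. The genes and lists were chosen with earlier results of these data known. Alternatives were quantile normalization again, median centring, filters at the 40th percentile or a mean of 6, trend and robust eBayes, array weights, the replicate number or spike-in group as a block, the mean of a gene's probe sets, and leaving out arrays.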

Additional observations from a re-analysis of the deposited data

Results flagged for a closer look

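Stab2 (1385160_at) had an array far from the others in both groups. Treated 4, at 5.27, lay 1.68 below the next treated array, a gap of 0.856 of the range of its group. Vehicle 4, at 6.87, lay 1.05 below the next vehicle array, a gap of 0.848 of the range. Both exceed Dixon's 95% critical value for 4 arrays, which chance exceeds in about 1 in 20 groups, and 18 groups were examined. The difference without each of these arrays is given with the gene.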

How the results depend on the processing

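The number of probe sets past an adjusted limma p of 0.05 was 0 over 8 arrays and 0 under each alternative that kept all arrays. Leaving out 1 array gave 0 to 11, with 11 without vehicle 4, and leaving out both nearly identical arrays gave 3. The larger number without vehicle 4 has fewer samples behind it, and the cause was not tested. Scavenger receptor probe sets past the threshold stayed at 0 of 9 in every fit run. All 152 of their differences outside the spike-in groups were negative, but these are refits of the same 9 differences and not separate results. The filters, trend and robust eBayes and both blocks leave a difference unchanged by construction. Of the differences within spike-in groups 3 were positive, for Stab2, Mrc1 and the brighter Gpr182 probe set in the third group. The median over the 7 genes was −0.86 after quantile normalization again, −0.77 after median centring, −0.93 with array weights, −0.68 to −1.16 when 1 array was left out and −1.09 without both nearly identical arrays. With the mean of both probe sets the Lyve1 difference was −1.20 and that of Gpr182 −0.48. The filter at a mean of 6 removed the dimmer Gpr182 probe set. With the replicate block 0 probe sets passed and the median was −0.82. Whether the replicate numbers pair the samples was not settled. Deviations of same-numbered arrays from their group means correlated at −0.11, 0.04, −0.12 and −0.62, while treated 3 and vehicle 4 correlated at 0.49. These correlations cannot decide it, because deviations within a group depend on each other and include the nearly identical arrays. Only treated 1 and vehicle 1 shared the excess of BioC over BioB. With 4 arrays a group, a 95% interval of a scavenger receptor difference spanned 0.57 to 2.54.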
